A study of Mus musculus with 12 samples.

Results

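BF10 is a fusion protein that joins human interleukin-10 (IL-10) to the heavy chain of an antibody against the mouse colony-stimulating factor 1 receptor (CSF1R). Tumors of mice given BF10 were set against tumors of mice given an isotype control (Ctrl-IgG) by RNA sequencing of whole tumor tissue. The libraries were chosen by the treatment named in their labels, which gave 3 BF10 and 3 Ctrl-IgG libraries, 6 of the 12 in the series. The other 6 came from tumors treated with IL-10-Fc or with the CSF1R antibody alone. Per the labels, every library is orthotopic oral tumor tissue grown from MTC-Q1, a mouse oral cancer cell line, in C57BL/6 mice, and treatment began once tumors measured 100 mm3. The number of doses is given as 6 in the treatment protocol and as 4 in the design text, and the mice of the study were 6 to 8 weeks old. The methods name the injected cells as a luciferase-expressing subline of MTC-Q1. They also describe a breast cancer model, 4T1 cells in BALB/c mice, which the label of no library names. The sex of the mice and the number of animals behind each library were not given in the sources used here, so the p-values measure only the spread between these libraries, which may be technical.

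CSF1R is the receptor through which CSF1 and IL-34 keep monocytes and macrophages alive, and blocking it is known to thin out tumor macrophages. IL-10 signals through STAT3, restrains inflammatory gene expression in myeloid cells and can raise the cytotoxic activity of CD8 T cells. A tumor sample mixes cancer cells with stroma and leukocytes, so its RNA also carries the lineage of the cancer cells and the sex and strain of the host. In such bulk RNA, fewer cells of a type and less RNA per cell cannot be told apart.

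Values are FPKM, fragment numbers scaled to transcript length and to the total of mapped fragments. Of 55401 genes, 15813 reached 1 FPKM in at least 3 of the 12 libraries and were tested. A gene was called when the limma adjusted p was under 0.05 and the fold change at least 1.5. By this rule 3941 genes (24.9%) were called, 1859 (11.8%) higher and 2082 (13.2%) lower in BF10. These shares are the measure for every gene list count given below. The median log2 change over all tested genes was -0.12. FPKM sums ranged from 637596 to 855961 over the 6 libraries, and mitochondrial transcripts held 6.57% of the sum in BF10 replicate 1 and 7.19% in Ctrl-IgG replicate 2 against 2.99% to 3.30% in the other 4. Without these 2 libraries and the 2 IL-10-Fc libraries of highest sum (together the 4 libraries of highest FPKM sum), 2978 genes (18.8%) were called higher and 3416 (21.6%) lower. All fold changes are on the scale of log2(FPKM + 1), which understates the change of low genes.

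The labels name an oral tumor, and its tissue markers were checked first. Summed over 25 genes of stratified squamous epithelium, the tissue that lines the mouth, the level was 25.2, 12.2 and 3435 FPKM in Ctrl-IgG replicates 1 to 3 and 52.4, 40.0 and 38.3 FPKM in BF10 replicates 1 to 3. Ctrl-IgG replicate 3 was thus the one library of the 6 rich in squamous epithelium RNA. In it the basal keratin Krt14 was 430.6 FPKM and the mucosal keratin Krt13 346 FPKM, and neither exceeded 0.17 FPKM in the remaining Ctrl-IgG libraries. Krt14 was 12.2 to 18.7 FPKM in BF10, and the epithelial stem cell factor Trp63 was at most 0.25 FPKM there. The sum over 18 skeletal muscle genes was 75.2, 49.4 and 1515 FPKM in Ctrl-IgG and 32, 60.8 and 186 FPKM in BF10. The third replicate of each group thus also carried the most muscle RNA. Of the tested squamous genes 0 of 24, and of the muscle genes 0 of 18, were called by limma, while 2 in each list had an unadjusted p under 0.05. One squamous gene was called lower without Ctrl-IgG replicate 2 or without the 4 libraries of highest sum. One muscle gene was called lower without Ctrl-IgG replicate 2, and Tnni2 was called higher without Ctrl-IgG replicate 3 (adjusted p = 0.0424).

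Genes that mark the sex and the strain of a mouse differed between the groups. Xist, which encodes the RNA that silences one X in females (GRCm38 identifier ENSMUSG00000086503, chrX:103460366-103483254), was 0.02, 0.02 and 0.03 FPKM in Ctrl-IgG and 29.5, 30.7 and 23.7 FPKM in BF10. The Y-linked translation factor gene Eif2s3y (ENSMUSG00000069049, chrY:1010543-1028847) was 5.88, 11.3 and 10.3 FPKM in Ctrl-IgG and 0.05, 0 and 3.29 FPKM in BF10. The Ctrl-IgG libraries therefore held Eif2s3y RNA without Xist, BF10 replicates 1 and 2 held Xist with next to no Eif2s3y RNA, and BF10 replicate 3 held both. Y chromosome genes were divided. Of 6 tested there, Eif2s3y among them, 2 were called lower and 3 higher in BF10, against 13.2% and 11.8% of all genes. The median log2 change of the 6 was 1.06. In the list of X inactivation and Y-linked genes 3 were tested, with 1 called higher and 2 lower. The count of lower genes was 1 with only the 2 groups fitted or without the 4 libraries of highest sum. Xist rose by a log2 change of 4.81 (SE 0.22, limma adjusted p = 5.78e-07), and Eif2s3y fell by 2.58 (SE 0.49, adjusted p = 0.00322). Xist and Eif2s3y did not overlap between the groups, as was the case for 38.4% of tested genes.

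Among strain-dependent genes, H2-Ea, the MHC class II alpha chain that C57BL/6 mice are known not to transcribe and BALB/c mice do (ENSMUSG00000036322, chr17:34341959-34344645), was 0.27, 0.14 and 0.15 FPKM in Ctrl-IgG. In BF10 it was 1089, 564 and 553 FPKM, so that every Ctrl-IgG library was near 0 and every BF10 library far above it. The log2 change of H2-Ea was 9.20 (SE 0.41, limma adjusted p = 5.78e-07). Ifi202b, one of the 12 largest rises and not counted in this list, is an interferon-inducible gene known to be low in C57BL/6 mice. It was 0.13, 0.14 and 1.19 FPKM in Ctrl-IgG and 374, 96.2 and 83.6 FPKM in BF10. Klra8, which encodes the activating NK receptor Ly49H of C57BL/6 mice and is missing in BALB/c mice, was 3.26, 5.62 and 1.51 FPKM in Ctrl-IgG and 0.11, 0 and 0.65 FPKM in BF10. It fell by a log2 change of 1.76 (SE 0.32, adjusted p = 0.0026). Ighg2c, the immunoglobulin constant gene of the C57BL/6 haplotype, was 0.16, 0.50 and 0.27 FPKM in Ctrl-IgG and 1.47, 20.0 and 45.6 FPKM in BF10. It was called higher, but not without BF10 replicate 2 or 3 or Ctrl-IgG replicate 1 or 3 (limma adjusted p up to 0.0826 over the alternatives). Reads of a related immunoglobulin gene of another strain may be counted under Ighg2c, which was not tested. All 3 BF10 and all 3 IL-10-Fc libraries held Xist and H2-Ea, at 17.1 FPKM or more and at 553 FPKM or more. The 3 libraries of the CSF1R antibody resembled Ctrl-IgG in these genes, with at most 0.04 FPKM of Xist and at most 0.17 FPKM of H2-Ea. In the comparison of BF10 with Ctrl-IgG, the treatment, the tumor line and the sex and strain of the host cannot be told apart. This holds for every rise and fall given below, in tumor, stroma and immune genes alike.

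**Figure D1:**
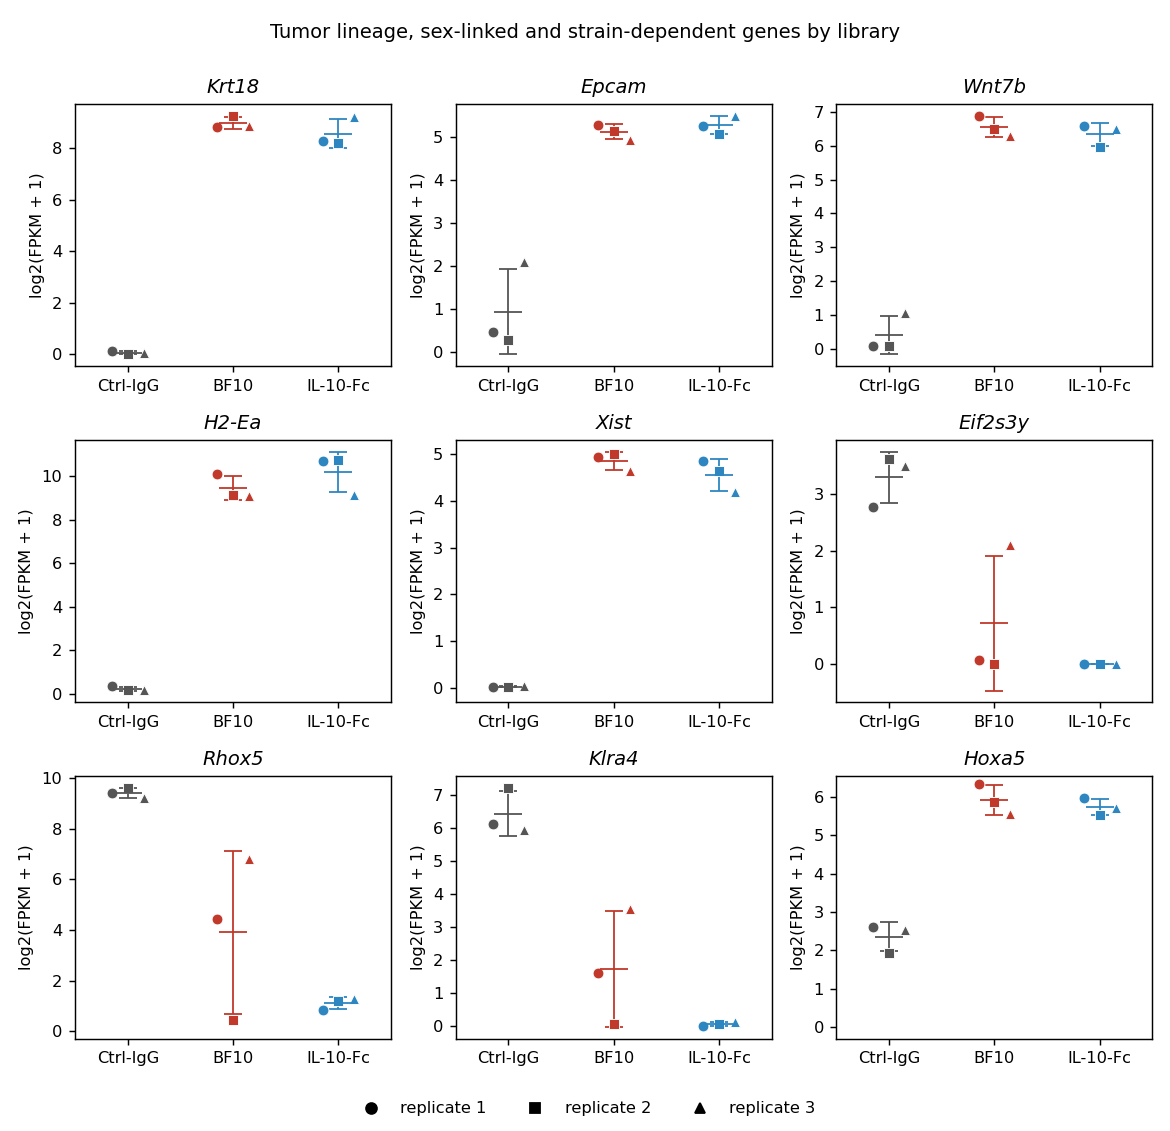
Expression of 9 genes in each Ctrl-IgG, BF10 and IL-10-Fc library, as log2(FPKM + 1) on the vertical axis. Symbols are libraries, the horizontal bar is the mean and the whiskers are 1 SD (n = 3). Krt18, H2-Ea and Xist sit near 0 in Ctrl-IgG and far above it in BF10 and IL-10-Fc, while Rhox5 and Klra4 are high in Ctrl-IgG, and BF10 replicate 3 keeps more of Rhox5, Klra4 and Eif2s3y than the other BF10 libraries.

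RNA of simple epithelial keratins also differed, and which cells made it was not tested. Simple epithelial keratins are the filament proteins of glandular epithelia such as breast, gut and pancreas. Krt18 (ENSMUSG00000023043, chr15:102028180-102032027) was 0.09, 0 and 0.05 FPKM in Ctrl-IgG and 450.2, 614 and 465 FPKM in BF10. Its partner Krt8 (chr15:101996698-102004482) was 0.11, 0.16 and 0.28 FPKM in Ctrl-IgG and 348, 618 and 479 FPKM in BF10. Both keratins were near silent in every Ctrl-IgG library and abundant in every BF10 library. Krt7 and Krt19 behaved alike, with log2 changes of 7.21 (SE 0.28) and 4.91 (SE 0.37), so that 4 of 5 tested simple keratins were called higher and the list median was 7.21. Krt23 was not called, with 3.31 FPKM in Ctrl-IgG replicate 3 and no more than 0.14 FPKM in any of the other 5 libraries.

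Epithelial adhesion genes followed the simple keratins. Of 20 tested junction genes and epithelial regulators, 12 were called higher and 1 lower, against 11.8% and 13.2% of all genes, with a median log2 change of 1.63 against -0.12. Epcam, a surface adhesion protein of simple epithelia (chr17:87635979-87651129), was 0.38, 0.21 and 3.26 FPKM in Ctrl-IgG and 38.1, 34.5 and 29.9 FPKM in BF10. It rose by a log2 change of 4.19 (SE 0.42, limma adjusted p = 8.03e-05). Tight junction and membrane protease genes rose with it, including Cldn4 (log2 change 3.99, SE 0.61), Cldn7 (1.74, SE 0.21), the matriptase gene St14 (3.39, SE 0.52) and its inhibitor Spint2 (4.93, SE 0.63). The epithelial transcription factor Grhl2 rose from 0.09 to 0.83 FPKM in Ctrl-IgG to 4.10 to 6.19 FPKM in BF10. Ovol2, which restrains the mesenchymal program, was the one member called lower, with 14.2, 6.54 and 11.01 FPKM in Ctrl-IgG and 0.47, 0.91 and 2.81 FPKM in BF10. Cdh1 (E-cadherin) was 0.92, 0.37 and 5.08 FPKM in Ctrl-IgG and 6.67, 33.3 and 27.2 FPKM in BF10. Its call (log2 change 2.95, SE 0.86, adjusted p = 0.028) was lost without BF10 replicate 2 or 3 or Ctrl-IgG replicate 1 or 2, with an adjusted p of up to 0.107 over the alternatives.

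Mesenchymal genes were called at about the rate of all genes. Of 15 tested genes of the epithelial to mesenchymal transition, 2 were called higher and 2 lower, against 11.8% and 13.2% of all genes, with a median log2 change of 0.40. N-cadherin (Cdh2) was 5.32, 3.65 and 4.92 FPKM in Ctrl-IgG and 0.39, 0.93 and 1.61 FPKM in BF10, and fell by a log2 change of 1.55 (SE 0.27, limma adjusted p = 0.00212). Cdh11, the cadherin of osteoblasts and fibroblasts, was 0.55, 1.24 and 2.96 FPKM in Ctrl-IgG and 9.39, 11.2 and 8.54 FPKM in BF10, a log2 change of 2.15 (SE 0.36). Vimentin (Vim) was 910.3 to 1363 FPKM in Ctrl-IgG and 1839 to 3057 FPKM in BF10 and was not called (log2 change 1.12, SE 0.41, adjusted p = 0.0712). The count of higher genes was 7 without the 4 libraries of highest FPKM sum and 1 without BF10 replicate 2 or 3 or Ctrl-IgG replicate 2 or 3. The count of lower genes was 1 without BF10 replicate 1 or 2 or Ctrl-IgG replicate 1 or 3.

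Mammary luminal genes were raised in part. Of 18 listed genes, 10 were tested, 7 were called higher and 0 lower by limma, with a median log2 change of 1.45. Gata3, a transcription factor of luminal breast cells that also serves T helper cells, was 2.91, 0.88 and 2.23 FPKM in Ctrl-IgG and 10.4, 26.3 and 22.6 FPKM in BF10. Gata3 rose by 2.75 (SE 0.47, adjusted p = 0.00176). The prolactin receptor gene Prlr was at most 0.07 FPKM in Ctrl-IgG and 1.05 to 1.58 FPKM in BF10. The milk and neutrophil granule genes Lcn2 and Ltf rose by 2.86 (SE 0.58) and 3.88 (SE 0.49) on the log2 scale. Of the caseins, Csn3 was the one tested, at 3.96 to 13.03 FPKM in Ctrl-IgG and 3.66 to 14.0 FPKM in BF10, with the groups overlapping. The luminal factors Elf5 and Foxa1 stayed under 1 FPKM in all 6 libraries.

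Wnt and ErbB ligands are growth signals that epithelial tumors can make. Wnt7b, one of the 12 largest rises (chr15:85535437-85582473), was 0.06, 0.05 and 1.09 FPKM in Ctrl-IgG and 118, 88.5 and 77.7 FPKM in BF10, without overlap. Wnt7b rose by 6.15 (SE 0.36, limma adjusted p = 2.19e-06), and 5 of 8 tested Wnt genes were called higher and 0 lower. Wnt7a was listed at 0 in every Ctrl-IgG library and at 1.27 to 3.86 FPKM in BF10. Of 11 tested ErbB receptors and ligands, 3 were called higher, against 11.8% of all genes, and all 3 are ligands of the EGF receptor. Tgfa was 0.01, 0 and 0.63 FPKM in Ctrl-IgG and 7.54, 26.5 and 20.1 FPKM in BF10, while Hbegf and Areg rose by 2.87 (SE 0.43) and 1.62 (SE 0.26). The receptor gene Egfr itself ran from 1.65 to 2.85 FPKM in Ctrl-IgG and from 1.78 to 2.79 FPKM in BF10. The ligand gene Ereg went down, from 5.01, 8.89 and 6.26 FPKM to 1.80, 0.44 and 1.70 FPKM, a log2 change of -1.77 (SE 0.31). Erbb3, the other member called lower, lost its call without Ctrl-IgG replicate 1 or 3 or BF10 replicate 1 or 2 (adjusted p at most 0.0893 over the alternatives).

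Transcripts of placenta and germline, which adult tissues hardly make and some tumor lines do, marked the Ctrl-IgG libraries. Rhox5, a homeobox gene of testis and placenta (chrX:37804842-37808876), was 688, 791 and 597 FPKM in Ctrl-IgG and 20.6, 0.37 and 111 FPKM in BF10. Prl2c2, which encodes the placental hormone proliferin (chr13:12996125-13005383), was 923, 2156 and 1099 FPKM in Ctrl-IgG and 47.5, 0.23 and 160.1 FPKM in BF10. Both were lowest in BF10 replicate 2 and highest of the BF10 libraries in replicate 3, and in neither did the groups overlap. Of 17 listed genes of this kind 5 were tested, and 5 were called lower, with a median log2 change of -3.92. The call of Prl2c2 was lost when only the 2 groups were fitted (limma adjusted p = 0.0506), and its reads may be shared with the near-identical genes Prl2c3 and Prl2c5.

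The residue of these transcripts in BF10 was graded by library. Among the 12 largest falls under the naming rule (Shisal2b, Prl2c2, Rhox5, Fmr1nb, Klra4, Tex13b, Xlr3c, Nxf3, Mageb2, Cyct, Rsad2 and Elovl4), the level in BF10 replicate 1 was 1.36% to 3.41% of the Ctrl-IgG mean, with a median of 2.45%. In BF10 replicate 2 it was 0% to 1.70%, with a median of 0.0245%, and in BF10 replicate 3 it was 9.81% to 29.4%, with a median of 12%. The order of the libraries held in each of the 12 genes. It did not hold throughout the 1456 called-lower genes with a Ctrl-IgG mean of at least 5 FPKM. Among the BF10 libraries 1008 of these (69.2%) were highest in replicate 3, and 762 were lowest in replicate 2. These values describe members chosen for their fall in this contrast and were not tested.

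**Figure D2:**
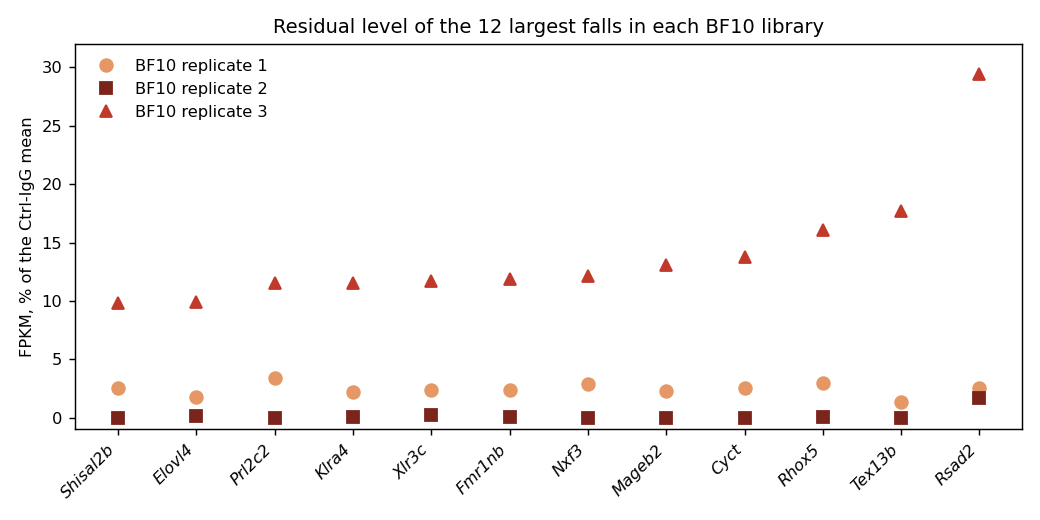
Level of the 12 largest falls in each BF10 library as a percentage of the Ctrl-IgG mean FPKM (vertical axis), with genes on the horizontal axis ordered by BF10 replicate 3. BF10 replicate 3 lies at 9.81% or more for every gene, replicate 1 at 3.41% or less and replicate 2 at 1.70% or less.

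Of 24 tested cell cycle genes 1 was called higher and 2 lower, against 11.8% and 13.2% of all genes, with a median log2 change of -0.23. Ribonucleotide reductase (Rrm2), which makes deoxynucleotides for replication, was 246, 199 and 219 FPKM in Ctrl-IgG and 32.1, 62.4 and 80.9 FPKM in BF10. It fell by a log2 change of 2.00 (SE 0.47, limma adjusted p = 0.0100), and the groups did not overlap. Cyclin D1 (Ccnd1) was 105.5, 39.7 and 96.3 FPKM in Ctrl-IgG and 237, 536 and 449 FPKM in BF10, a rise of 2.36 (SE 0.58, adjusted p = 0.0124) that was not called without BF10 replicate 2 (adjusted p = 0.0551). The count of lower genes was 5 without the 4 libraries of highest sum. Aurka, the other gene called lower, lost its call when any one of the 6 libraries was left out (adjusted p up to 0.111). The proliferation marker Mki67 was 27.6 to 74.9 FPKM in Ctrl-IgG and 33.0 to 60.05 FPKM in BF10. Of 14 genes of the p53 pathway and the Cdkn2 locus, 4 were called lower, a count of 1 without BF10 replicate 2 or Ctrl-IgG replicate 1, 2 without BF10 replicate 1 or Ctrl-IgG replicate 3, and 7 without the 4 libraries of highest sum. The p53 target Eda2r, on the X chromosome, was 6.52, 12.3 and 5.46 FPKM in Ctrl-IgG and 0.72, 0.30 and 1.10 FPKM in BF10 (log2 change -2.37, SE 0.29). Among 24 genes of glycolysis and hypoxia 3 were called in each direction, close to the share of all genes (24.9% in both directions together), and 4 were called higher and 8 lower without the 4 libraries of highest sum. The hypoxia-induced carbonic anhydrase Car9 rose by 2.82 (SE 0.62) and the lactate exporter gene Slc16a3 fell by 2.23 (SE 0.51), with 213, 68.4 and 196 FPKM in Ctrl-IgG and 18.4, 25.5 and 54.5 FPKM in BF10.

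Hox genes keep a record of where along the body axis a cell arose, and their RNA differed between the 2 groups. Of 39 Hox genes 29 were tested, 6 were called higher and 12 lower, with a median log2 change of -0.59. Among paralogue groups 1 to 5, which serve the head and upper trunk, 4 of 12 tested genes were called higher and 2 lower, with a median of 0.26. In groups 9 to 13, which serve the tail end and the limbs, 0 of 9 were called higher and 8 lower, with a median of -1.96.

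Hoxa5 (chr6:52201754-52204587) was 5.16, 2.82 and 4.74 FPKM in Ctrl-IgG and 79.5, 57.2 and 46.5 FPKM in BF10. Its log2 change was 3.56 (SE 0.26, limma adjusted p = 1.09e-05), and Hoxa2 and Hoxa3 rose by 2.75 (SE 0.26) and 2.40 (SE 0.45). Hoxd13 (chr2:74668310-74671599), at the 5′ end of the Hoxd cluster, was 11.04, 8.07 and 10.7 FPKM in Ctrl-IgG and 0.14, 0 and 1.66 FPKM in BF10. Its log2 change was -2.90 (SE 0.33, adjusted p = 0.000171), and Hoxd10, Hoxa11 and Hoxd9 fell by 2.89 (SE 0.27), 2.20 (SE 0.33) and 2.03 (SE 0.27). For neither Hoxa5 nor Hoxd13 did the libraries overlap, and among the BF10 libraries the residue of Hoxd13 was again highest in replicate 3. Craniofacial homeobox and T-box genes, which pattern the face and jaw, were called lower in 4 of 14 cases and higher in 0. The shares over all genes were 13.2% and 11.8%. Alx1, a factor of the facial mesenchyme, was 12.8, 18.3 and 11.3 FPKM in Ctrl-IgG and 0.50, 0 and 1.36 FPKM in BF10, a log2 change of -3.28 (SE 0.31, adjusted p = 5.44e-05). Pax3, Pax9 and Dlx2 also fell, by 2.33 (SE 0.38), 1.77 (SE 0.33) and 1.12 (SE 0.21). The count of lower craniofacial genes rose to 7 without Ctrl-IgG replicate 2 and to 9 without the 4 libraries of highest sum.

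**Figure D3:**
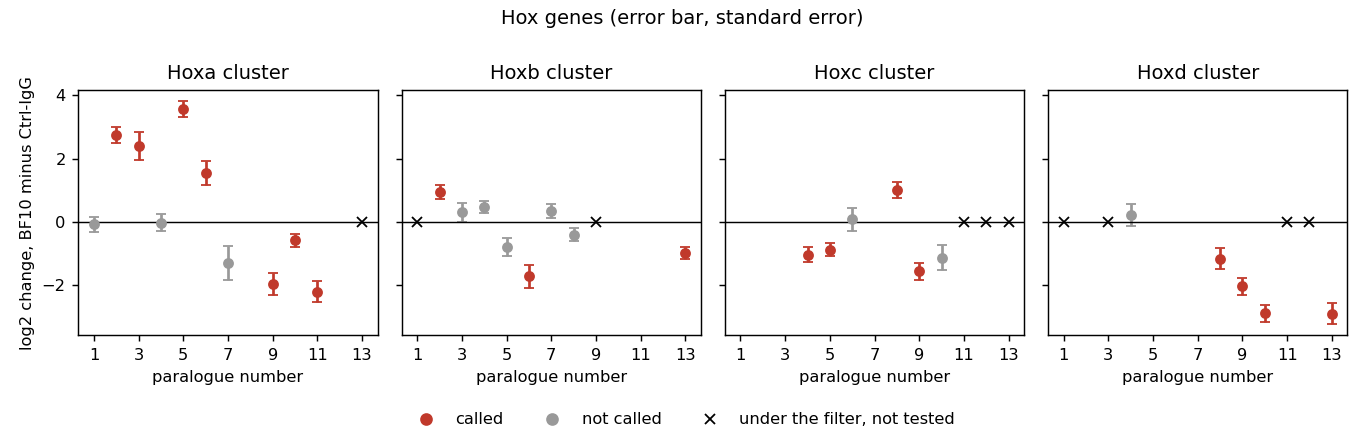
Log2 change of Hox genes, BF10 minus Ctrl-IgG (vertical axis, error bars are SE), against paralogue number in each of the 4 Hox clusters. Called rises are found in paralogue groups 2 to 8 and reach 3.56 for Hoxa5, and the called changes in groups 9 to 13 are all falls.

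RNA of collagens and remodeling enzymes was higher in BF10, and which cells made it was not tested. Of 25 tested fibroblast matrix genes 13 were called higher and 1 lower (median log2 change 1.71). Collagen III (Col3a1, chr1:45311538-45349706) was 76.6, 53.1 and 220.2 FPKM in Ctrl-IgG and 1121, 810 and 674 FPKM in BF10, with every BF10 library above every Ctrl-IgG library. Its log2 change was 3.12 (SE 0.48, limma adjusted p = 0.00102), and Col1a1, Col1a2 and Col12a1 rose by 3.50 (SE 0.81), 3.10 (SE 0.74) and 3.70 (SE 0.61). The glycoprotein tenascin C (Tnc), a mark of tissue under repair, was 3.06, 4.50 and 18.4 FPKM in Ctrl-IgG and 86.6, 125 and 87.0 FPKM in BF10. The fibroblast receptor gene Pdgfra was not called, with 14.0 to 17.6 FPKM in Ctrl-IgG and 7.92 to 13.3 FPKM in BF10, a log2 change of -0.49 (SE 0.34, adjusted p = 0.339). Among the Ctrl-IgG libraries these 4 collagens were highest in replicate 3, the library with squamous and muscle RNA. Without that library 14 matrix genes were called higher and 0 lower, and without BF10 replicate 2 they were 9 and 0.

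Of 14 tested metalloproteinases and inhibitors, 7 were called higher and 1 lower. The gelatinase gene Mmp9 (chr2:164940780-164955850) was 2.34, 2.10 and 3.28 FPKM in Ctrl-IgG and 48.4, 297 and 175 FPKM in BF10, a log2 change of 5.28 (SE 0.64, limma adjusted p = 0.000253). The stromelysin genes Mmp3 and Mmp10 rose by 4.35 (SE 0.85) and 3.73 (SE 0.38), and the macrophage elastase gene Mmp12 by 2.41 (SE 0.48). Mmp11 fell by 2.15 (SE 0.55), a call lost without Ctrl-IgG replicate 1 or BF10 replicate 1 (adjusted p at most 0.0675). The count of higher genes was 4 without Ctrl-IgG replicate 1 or 2. Adipocyte genes were called higher in 6 of 9 cases, with a median log2 change of 2.23. The fat hormone gene Adipoq was 0.09, 0.25 and 0.64 FPKM in Ctrl-IgG and 29.8, 16.3 and 18.9 FPKM in BF10, and complement factor D (Cfd), an adipocyte product, rose by 5.83 (SE 1.00). In IL-10-Fc both genes were high in replicate 1 alone, at 39.7 FPKM for Adipoq and 116 FPKM for Cfd, against at most 2.30 and 5.14 FPKM in replicates 2 and 3. Endothelial genes were called higher in 3 of 16 cases (18.8%), against 11.8% of all genes. The count was 0 without BF10 replicate 2 or 3 or Ctrl-IgG replicate 1 or 2. It was also 0 after rescaling all libraries to the same sum (TPM) and with only the 2 groups fitted. It was 5 with median-of-ratios or quantile scaling, 6 without the 4 libraries of highest sum and 11 with the FPKM sum as covariate. The part of adjacent fat, muscle and mucosa in the dissected tissue was not tested.

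**Figure D4:**
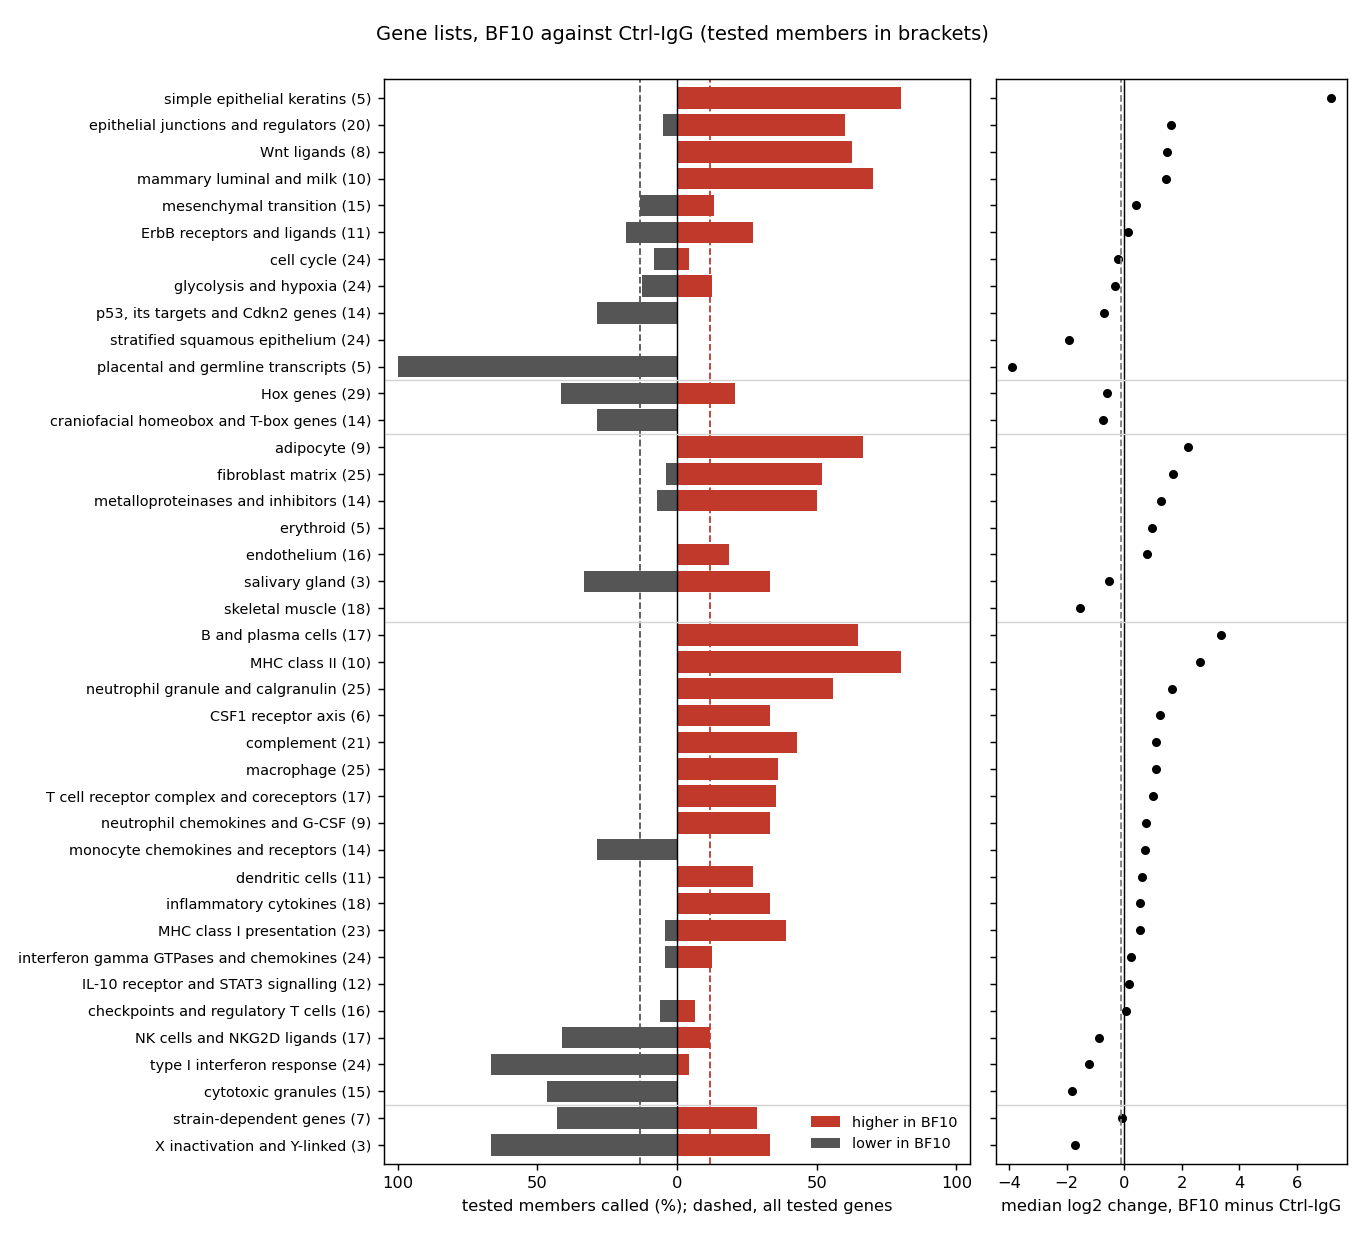
Left, percentage of tested members of each gene list called higher (right of 0) or lower (left of 0) in BF10 than in Ctrl-IgG, with dashed lines at the 11.8% and 13.2% found over all tested genes. Right, median log2 change of each list, with the dashed line at the -0.12 of all genes. Simple keratins (7.21) and placental and germline transcripts (-3.92) lie farthest out.

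Among immune genes, RNA of the MHC class II genes was higher in BF10. MHC class II molecules present peptides to CD4 T cells and are made by dendritic cells, B cells, activated macrophages and some epithelia under interferon gamma. Of 10 tested genes of this list 8 were called higher and 0 lower by limma, with a median log2 change of 2.64. The alpha chain gene H2-Aa (ENSMUSG00000036594, chr17:34282744-34287823) was 109, 250.5 and 162 FPKM in Ctrl-IgG and 1280, 788 and 815 FPKM in BF10. The transactivator gene Ciita, the master switch of the class II genes, was 1.31, 0.87 and 0.95 FPKM in Ctrl-IgG and 8.56, 18.95 and 14.6 FPKM in BF10. Neither gene overlapped between the groups, and their log2 changes were 2.51 (SE 0.40, adjusted p = 0.00116) and 2.82 (SE 0.40, adjusted p = 0.000623). H2-Eb1 and H2-Ab1 rose by 2.66 (SE 0.40) and 2.95 (SE 0.55). The peptide-loading gene H2-DMb2 rose by 5.42 (SE 0.43), from 0.53 to 1.05 FPKM in Ctrl-IgG to 40.6 to 103 FPKM in BF10, and its neighbor H2-DMb1 was not called (1.39, SE 0.48, adjusted p = 0.0558). H2-Ob, the class II gene of B cells, was 0.30 FPKM in BF10 replicate 1 and 26.6 and 13.4 FPKM in replicates 2 and 3.

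The promoters of H2-Aa and H2-Eb1 are shown because these class II genes moved together and hold the Y box, a CCAAT-type element of class II promoters, in the same stretch before the start site. The windows run from 250 bases before to 50 bases after the start of each gene (RefSeq, GRCm38.p6). They cover chr17:34287774-34288073 on the minus strand for H2-Aa and chr17:34305617-34305916 on the plus strand for H2-Eb1. Capitals mark CTGATTGG, which begins 51 and 62 bases before the start site.
H2-Aa: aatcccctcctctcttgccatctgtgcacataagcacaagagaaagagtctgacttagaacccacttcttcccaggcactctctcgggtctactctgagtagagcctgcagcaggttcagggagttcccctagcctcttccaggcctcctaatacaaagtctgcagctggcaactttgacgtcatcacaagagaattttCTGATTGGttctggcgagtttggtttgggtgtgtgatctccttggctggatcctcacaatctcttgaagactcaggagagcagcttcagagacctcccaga
H2-Eb1: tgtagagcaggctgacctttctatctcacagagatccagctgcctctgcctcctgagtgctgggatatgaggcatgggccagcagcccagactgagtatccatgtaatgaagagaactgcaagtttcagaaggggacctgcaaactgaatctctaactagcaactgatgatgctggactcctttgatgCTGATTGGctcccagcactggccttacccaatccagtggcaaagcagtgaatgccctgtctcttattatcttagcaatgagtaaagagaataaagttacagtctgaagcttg
Searched on both strands, these letters were found in 4 of the 8 class II promoters with a sequence and in 1166 of 27025 promoters (4.31%) of the same length. The letters were chosen after the expression values were seen, and a match is not evidence of a bound site.

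Classical MHC class I genes were abundant in every library. H2-K1 was 1363 to 2887 FPKM in Ctrl-IgG and 2359 to 3576 FPKM in BF10 and was not called. Of 23 tested class I presentation genes 9 were called higher and 1 lower, against 11.8% and 13.2% of all genes. The Qa genes led the rises. H2-Q2 was 0.15, 0.12 and 0.12 FPKM in Ctrl-IgG and 69.9, 107 and 88.7 FPKM in BF10, and H2-Q1 was listed at 0 in all Ctrl-IgG libraries and at 18.4, 38.5 and 29.2 FPKM in BF10. H2-Q10 rose by a log2 change of 5.35 (SE 0.51, limma adjusted p = 5.92e-05). The Qa region is known to differ between H2 haplotypes in gene content and sequence, and its near-identical members can share reads, so single members are uncertain. The count of higher genes was 5 without BF10 replicate 2 or 3 or without Ctrl-IgG replicate 2. It was 4 after rescaling to TPM and 11 with quantile scaling. The count of lower genes was 0 without BF10 replicate 2 or any one Ctrl-IgG library and 3 without the 4 libraries of highest sum.

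RNA of type I interferon response genes was lower in BF10. These genes are switched on by the factor complex ISGF3 when cells sense interferon alpha or beta. Of 24 tested members 16 were called lower and 1 higher, with a median log2 change of -1.23. Rsad2 (viperin, ENSMUSG00000020641, chr12:26442746-26456452) was 228, 125 and 182 FPKM in Ctrl-IgG and 4.58, 3.04 and 52.5 FPKM in BF10. Isg15, a ubiquitin-like modifier (chr4:156199424-156200818), was 403, 155 and 281 FPKM in Ctrl-IgG and 63.8, 51.5 and 119.9 FPKM in BF10. For both genes the groups did not overlap and BF10 replicate 3 was the highest of the BF10 libraries. Their log2 changes were -4.03 (SE 0.76, limma adjusted p = 0.00319) and -1.81 (SE 0.39, adjusted p = 0.00606). The sensor gene Ddx58 and the antiviral GTPase gene Mx1 fell by 1.64 (SE 0.27) and 1.71 (SE 0.25). The number called lower was 8 without Ctrl-IgG replicate 1 or BF10 replicate 2 and 21 without the 4 libraries of highest sum.

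The promoters of Isg15 and Rsad2 are shown because they are 2 of the falling genes with a core of the interferon-stimulated response element, the sequence that ISGF3 is known to bind. They cover chr4:156200769-156201068 and chr12:26456403-26456702, both on the minus strand (RefSeq, GRCm38.p6). Capitals mark GAAA, 2 bases of any kind and GAAA again, on either strand. Isg15 holds 3 overlapping matches that begin 78, 72 and 66 bases before the start site, and Rsad2 holds 1 on the opposite strand at 120 bases before it.
Isg15: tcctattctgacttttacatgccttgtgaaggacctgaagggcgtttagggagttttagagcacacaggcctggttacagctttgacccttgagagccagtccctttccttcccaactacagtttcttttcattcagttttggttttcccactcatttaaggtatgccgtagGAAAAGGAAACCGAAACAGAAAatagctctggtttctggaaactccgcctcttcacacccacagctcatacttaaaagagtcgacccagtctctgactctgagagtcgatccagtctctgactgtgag
Rsad2: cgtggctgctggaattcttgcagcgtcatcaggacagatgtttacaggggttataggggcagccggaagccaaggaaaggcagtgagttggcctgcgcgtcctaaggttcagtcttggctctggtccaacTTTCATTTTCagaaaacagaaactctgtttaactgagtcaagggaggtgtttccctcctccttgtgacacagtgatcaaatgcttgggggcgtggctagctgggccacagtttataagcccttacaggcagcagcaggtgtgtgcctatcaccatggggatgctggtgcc
The core was found in 11 of the 17 promoters of the list with a sequence (64.7%), in 0 of the 8 class II promoters and in 943 of 27025 promoters (3.49%) of the same length. These letters too were chosen after the values were seen.

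Interferon gamma, the product of T and NK cells, induces a further set of GTPases and chemokines. Of 24 tested genes of this kind 3 were called higher and 1 lower, against 11.8% and 13.2% of all genes, with a median log2 change of 0.24. Cxcl10, which draws CXCR3-bearing T cells and answers to both interferons, was 591, 678 and 551 FPKM in Ctrl-IgG and 56.9, 26.9 and 178 FPKM in BF10. It fell by 3.20 (SE 0.52, limma adjusted p = 0.00132), and its sister Cxcl9 was not called, with 31.4, 62.9 and 55.8 FPKM in Ctrl-IgG and 112, 51.4 and 70.2 FPKM in BF10. The GTPase gene Gbp2b rose from 0.39, 1.43 and 0.86 FPKM to 238, 100.6 and 85.2 FPKM, a log2 change of 6.11 (SE 0.43), while Gbp2 was 186 to 305 FPKM in Ctrl-IgG and 136 to 298 FPKM in BF10. Gbp2 and Gbp2b are close relatives, so reads may be shared between them. Without the 4 libraries of highest sum 7 genes of the list were called higher and 2 lower. Ifng itself was 1.69 to 2.57 FPKM in Ctrl-IgG and 1.2 to 2.07 FPKM in BF10.

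The genes of granzymes B to G were lower in BF10. Of 15 tested cytotoxic granule genes 7 were called lower, 0 higher and 8 were not called by limma. The list had a median log2 change of -1.81. In 1 of the 15 every BF10 library lay above every Ctrl-IgG library, and in 8 every one lay below. Such genes made up 17.3% and 21.1% of all tested genes. Granzyme C (Gzmc, chr14:56231441-56234656), one of the granzymes of strongly activated killer cells, was 340.0, 306 and 164 FPKM in Ctrl-IgG and 25.5, 14.5 and 37.7 FPKM in BF10. Every Ctrl-IgG library exceeded every BF10 library, and the log2 change was -3.36 (SE 0.40, adjusted p = 0.000225). Granzyme B (Gzmb) fell by 2.28 (SE 0.50), and Gzmd, Gzme, Gzmf and Gzmg fell by 2.27 to 3.36. Gzmc to Gzmg are near-identical neighbors of 1 cluster, and their levels are uncertain one by one. Gzma was 105.3, 56.8 and 16.9 FPKM in Ctrl-IgG and 16.3, 3.42 and 32.1 FPKM in BF10, with the groups overlapping and no call (adjusted p = 0.143).

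T cell receptor genes did not follow the granzymes. Of 17 tested genes of the receptor complex and its coreceptors 6 were called higher and 0 lower, against 11.8% and 13.2% of all genes. Their median log2 change was 1.01. The receptor constant gene Trac was 4.33, 3.93 and 3.49 FPKM in Ctrl-IgG and 10.46, 24.7 and 18.9 FPKM in BF10. Trac rose by 1.88 (SE 0.35, limma adjusted p = 0.00274), and Cd3g rose by 1.296 (SE 0.27). BF10 replicate 1 was the lowest of its group for Trac and lay inside the Ctrl-IgG range for Cd3e (1.58 FPKM against 0.99 to 1.74), where replicates 2 and 3 had 11.3 and 8.17 FPKM. The number of called T cell genes was 2 without BF10 replicate 2 or 3 or Ctrl-IgG replicate 2, 3 without Ctrl-IgG replicate 1 or 3, 10 without BF10 replicate 1 and 13 without the 4 libraries of highest sum. It was 2 after rescaling to TPM and 3 with only the 2 groups fitted. With median-of-ratios or quantile scaling it was 9, and with the FPKM sum as covariate 11. Of 16 tested checkpoint and regulatory T cell genes 1 was called in each direction, Ikzf2 higher and Cd244a lower. These shares (6.25% each) lay below the 11.8% and 13.2% of all genes. Without BF10 replicate 1 the count of higher genes was 2, and without the 4 libraries of highest sum it was 4.

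Some NK receptor genes were lower and NKG2D ligands were divided. Of 17 tested genes 7 were called lower, 2 higher and 8 were not called. The lower genes include the ligand genes Raet1e and Raet1d and the strain-dependent Klra8. Klra4 (Ly49D, chr6:130043731-130067271) was 68.8, 148 and 60.8 FPKM in Ctrl-IgG and 2.02, 0.03 and 10.7 FPKM in BF10, a log2 change of -4.70 (SE 0.68, limma adjusted p = 0.000713). Ncr1, the receptor that defines NK cells, was 5.18, 7.74 and 1.47 FPKM in Ctrl-IgG and 2.71, 1.71 and 2.09 FPKM in BF10, and was not called (log2 change -0.70, SE 0.53, adjusted p = 0.390). Klra4 was above Ncr1 in every Ctrl-IgG library. The Klra4 residue in BF10 replicates 1 to 3 was 2.19%, 0.0325% and 11.5% of the Ctrl-IgG mean. The medians over the 12 largest falls, Klra4 included, were 2.45%, 0.0245% and 12%. Which cells made Klra4 was not tested. NKG2D ligands are stress proteins that flag a cell to killer cells. Raet1e and Raet1d fell by 1.45 (SE 0.21) and 1.68 (SE 0.24), and Ulbp1 and H60b rose by 1.39 (SE 0.28) and 2.52 (SE 0.25). H60b was 0 to 0.15 FPKM in Ctrl-IgG and 3.70 to 6.08 FPKM in BF10. The ligand and Ly49 loci are known to vary between mouse strains, and reads can be shared among their members.

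B cell and plasma cell genes were higher in BF10 but spread widely. Of 17 tested genes 11 were called higher and 0 lower by limma, with a median log2 change of 3.37. The immunoglobulin joining chain gene Jchain (chr5:88519809-88527891) was 0.06, 0.57 and 0.24 FPKM in Ctrl-IgG and 17.1, 67.7 and 181 FPKM in BF10, and the light chain gene Igkc was 0.81, 3.98 and 11.9 FPKM in Ctrl-IgG and 96.6, 920 and 2433 FPKM in BF10. Replicate 3 was the highest BF10 library and replicate 1 the lowest for both, and the log2 changes were 5.58 (SE 0.94, adjusted p = 0.00162) and 6.95 (SE 1.29, adjusted p = 0.00289). The B cell surface gene Ms4a1 (CD20) was high in 2 of the 3 BF10 libraries. It was 0.19, 22.6 and 9.57 FPKM in BF10 replicates 1 to 3, against at most 0.04 FPKM in Ctrl-IgG. The list count was 6 without BF10 replicate 2 and 7 without BF10 replicate 3 or Ctrl-IgG replicate 1.

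The constant gene Ighg3 (IgG3) was listed at 0 in all Ctrl-IgG libraries and at 17.0, 8.51 and 11.1 FPKM in BF10. It was also at most 0.14 FPKM in IL-10-Fc. BF10 differed from IL-10-Fc in 2 of 15813 genes (0.0126%), against 828 with an unadjusted p under 0.05. These 2 genes are named after their values were seen. Ighg3 was higher in BF10 by a log2 change of 3.54 (SE 0.22, limma adjusted p = 9.33e-05), and Mir1893 was listed at 0 in BF10 and at 1.82 to 4.25 FPKM in IL-10-Fc. The count was 115 without BF10 replicate 1 and 64 without the 4 libraries of highest sum.

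Myeloid genes are the ones on which both arms of BF10 bear. Csf1r, the target of its antibody part, was 8.56, 7.33 and 22.1 FPKM in Ctrl-IgG and 13.1, 79.1 and 67.0 FPKM in BF10. BF10 replicate 1 lay inside the Ctrl-IgG range and replicates 2 and 3 above it, and Csf1r was not called (log2 change 1.79, SE 0.69, limma adjusted p = 0.0841). Its ligand gene Il34 rose by 1.38 (SE 0.37, adjusted p = 0.0194), a call lost without BF10 replicate 2 or 3 or Ctrl-IgG replicate 2, and Csf1 was not called (1.13, SE 0.71). Of the 6 genes listed with this axis, Il34 and Csf2rb were called higher and 0 lower, against 11.8% and 13.2% of all genes. Csf2rb encodes a chain of other cytokine receptors and not of CSF1R. The count of higher genes was 0 without BF10 replicate 2 or 3 or Ctrl-IgG replicate 2 and after rescaling to TPM. It was 1 without Ctrl-IgG replicate 1, 3 with median-of-ratios or quantile scaling and 5 without the 4 libraries of highest sum. Of 25 tested macrophage genes 9 were called higher and 0 lower, with a median log2 change of 1.10. Arginase (Arg1), an enzyme of tissue-repair macrophages that some tumors also make, was 18.1, 8.72 and 22.4 FPKM in Ctrl-IgG and 154, 313 and 159 FPKM in BF10. Its log2 change was 3.60 (SE 0.42, adjusted p = 0.000222), and Lyz2, Mrc1 and Trem2 rose by 2.59 (SE 0.56), 1.55 (SE 0.36) and 1.47 (SE 0.33). The pan-macrophage genes Adgre1 (F4/80) and Cd68 were not called, with log2 changes of 0.26 (SE 0.35) and 0.10 (SE 0.43). Without the 4 libraries of highest sum 14 macrophage genes were called higher.

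Of 12 tested genes of the IL-10 receptor and STAT3 pathway 0 were called by limma, against 1 with an unadjusted p under 0.05, and the median log2 change was 0.17. One was called higher without Ctrl-IgG replicate 3, and 2 higher and 1 lower without the 4 libraries of highest sum. Socs3, a feedback gene of STAT3, was 33.9, 7.54 and 62.2 FPKM in Ctrl-IgG and 34.0, 47.9 and 50.1 FPKM in BF10, with the groups overlapping. Among monocyte chemokines and receptors 4 of 14 were called lower and 0 higher, against 13.2% and 11.8% of all genes. Ccl2, the main draw for monocytes, was 492, 482 and 327 FPKM in Ctrl-IgG and 100.3, 25.0 and 159.6 FPKM in BF10, a log2 change of -2.51 (SE 0.58, adjusted p = 0.00916). Its receptor gene Ccr2 was not called (1.43, SE 0.56, adjusted p = 0.0857). The count of lower genes was 1 without BF10 replicate 2, without Ctrl-IgG replicate 1 or 2, or with median-of-ratios scaling, and 5 genes were called higher without the 4 libraries of highest sum.

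Granulocyte genes rose. Of 25 tested neutrophil genes 14 were called higher and 0 lower by limma, with a median log2 change of 1.65. The calgranulin gene S100a9 was 9.47, 13.67 and 139 FPKM in Ctrl-IgG and 872, 276 and 386 FPKM in BF10, a log2 change of 4.03 (SE 0.90, adjusted p = 0.00767), and was not called without the 4 libraries of highest sum (adjusted p = 0.0561). Ctrl-IgG replicate 3, with its squamous epithelium RNA, was the highest control, and S100a9 is also a keratinocyte gene. Ngp, a granule gene of neutrophil precursors, was 0, 0 and 0.09 FPKM in Ctrl-IgG and 6.86, 33.7 and 39.0 FPKM in BF10. Csf3, which encodes the neutrophil growth factor G-CSF (chr11:98701263-98703629), was 0.16, 0.26 and 1.41 FPKM in Ctrl-IgG and 110.3, 18.8 and 31.1 FPKM in BF10. Csf3 rose by 4.76 (SE 0.58, adjusted p = 0.00027). The number of called neutrophil genes was 9 without Ctrl-IgG replicate 1 and 8 without Ctrl-IgG replicate 2. Of 9 tested neutrophil chemokines and growth factors 3 were called higher and 0 lower, against 11.8% and 13.2% of all genes. One was called lower without BF10 replicate 1 or the 4 libraries of highest sum. Of 11 tested dendritic cell genes 3 were called higher and 0 lower, beside the same shares. The 3 were Siglech, Ccl17 and Epcam, the last also an epithelial gene. This count was 5 without BF10 replicate 1, 2 without Ctrl-IgG replicate 1 and 7 without the 4 libraries of highest sum.

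Cytokine and complement genes were called in one direction. Of 18 tested inflammatory cytokine genes 6 were called higher and 0 lower. Il1a was 0.34, 0.86 and 1.14 FPKM in Ctrl-IgG and 15.0, 6.91 and 4.30 FPKM in BF10, and the activin gene Inhba was 1.11, 1.2 and 1.28 FPKM in Ctrl-IgG and 15.3, 19.3 and 12.8 FPKM in BF10. Both rose without overlap, by 2.33 (SE 0.43, limma adjusted p = 0.00272) and 2.92 (SE 0.22, adjusted p = 1.33e-05). Tnf and Il6, classical targets of IL-10 restraint, were not called, with log2 changes of -0.54 (SE 0.33) and -0.33 (SE 0.64). Of 21 tested complement genes 9 were called higher and 0 lower, with a median of 1.11. C1qa, the first subunit of the classical pathway and a macrophage product, was 120.5, 144 and 231 FPKM in Ctrl-IgG and 330.4, 349 and 371 FPKM in BF10, and C4b rose by 2.95 (SE 0.55).

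**Figure D5:**
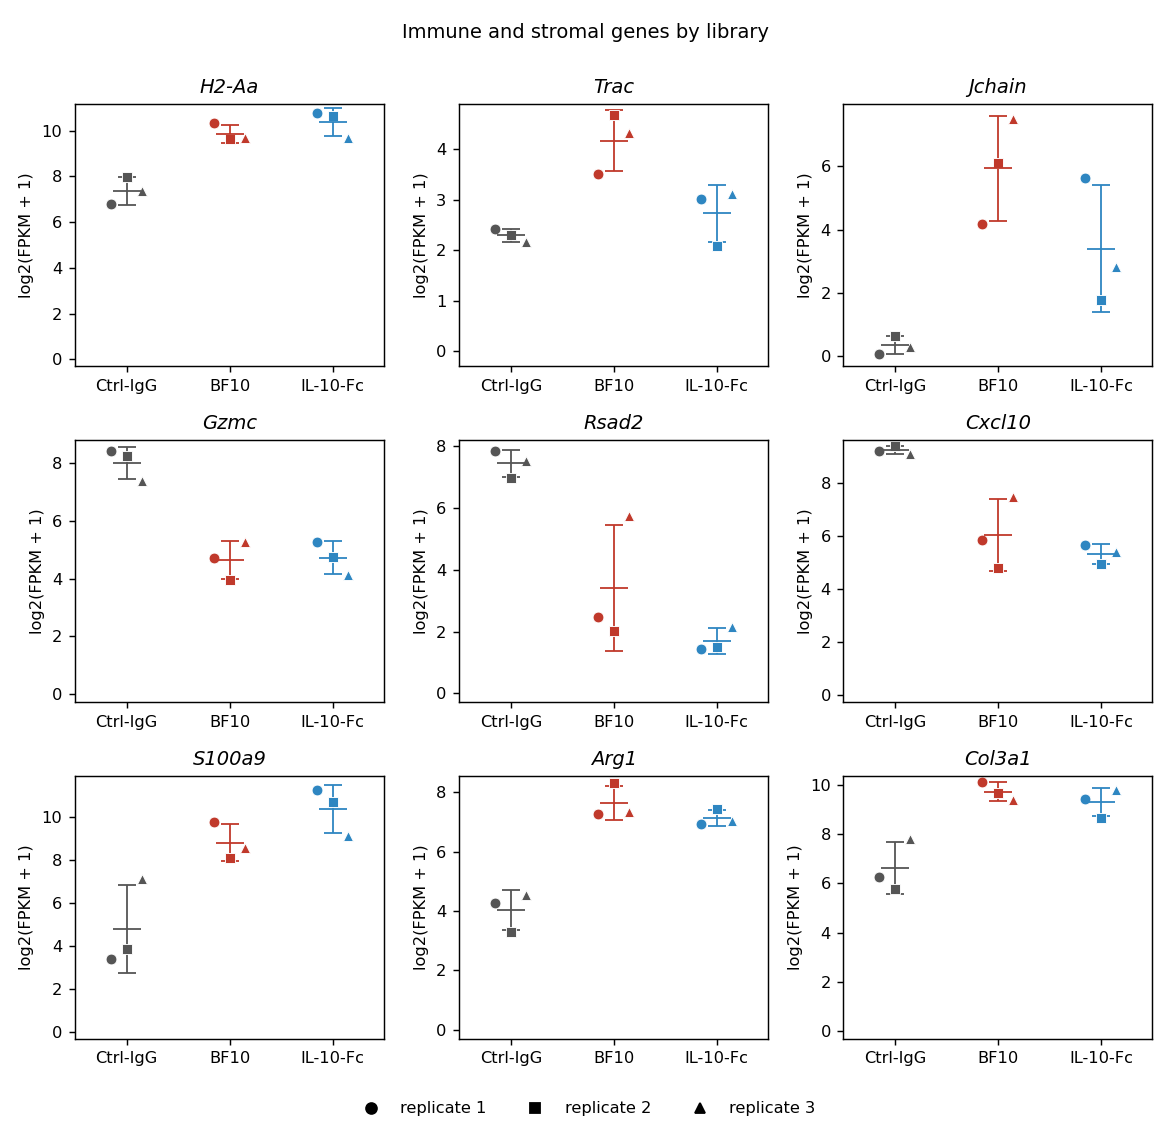
Expression of 9 immune and stromal genes in each Ctrl-IgG, BF10 and IL-10-Fc library, as log2(FPKM + 1) on the vertical axis, with libraries as symbols, the mean as a bar and 1 SD as whiskers (n = 3). H2-Aa, Jchain, Arg1 and Col3a1 are higher in all BF10 than in all Ctrl-IgG libraries, and Gzmc, Rsad2 and Cxcl10 are lower in all of them.

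Levels in IL-10-Fc are given side by side for 4 genes. Krt18 was 309.9, 294 and 595 FPKM, Arg1 121, 173 and 130.01 FPKM, Gzmc 37.6, 26.2 and 16.6 FPKM and Rsad2 1.69, 1.80 and 3.47 FPKM in IL-10-Fc replicates 1 to 3. BF10 minus IL-10-Fc differed by log2 changes of 0.41 (SE 0.27) for Krt18, 0.50 (SE 0.42) for Arg1, -0.07 (SE 0.40) for Gzmc and 1.72 (SE 0.76) for Rsad2, none of them called, which does not show that the groups were alike. For Rsad2, BF10 replicate 3 lay far above every IL-10-Fc library. The median difference, BF10 minus IL-10-Fc, was 2.67 over the B and plasma cell genes and 1.52 over the adipocyte genes, against 0.34 over all tested genes. These were the highest of the list medians. Of the 17 tested B and plasma cell genes 1 was called between BF10 and IL-10-Fc, and of the 9 adipocyte genes 0. Both groups were set against one set of Ctrl-IgG libraries, so their changes from it are not independent.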

How the data were processed

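RNA from whole tumors was extracted with Trizol, made into TruSeq stranded mRNA libraries and sequenced on a NextSeq 550. The deposited values are FPKM per gene as the authors made them. The submitters' processing notes name STAR 2.7.5a, RSEM 1.3.3, DESeq2 1.30.0 and the build mm10 (GRCm38). The deposited fold changes and p-values of the authors' own comparisons were not used. Read depth cannot be taken from these values, so no counting interval is given.

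Libraries were grouped by their labels, 3 for each of 4 treatments. Genes with at least 1 FPKM in at least 3 of 12 libraries were tested on log2(FPKM + 1) with limma 3.58.1 in R 4.3.3, all 12 libraries in one fit with a trended variance prior, with two-sided p-values, with Benjamini-Hochberg adjustment over all tested genes. Steps were tested on simulated data. Tables and figures used Python 3.11.15, pandas 2.3.3 and matplotlib 3.10.9. Gene positions came from GENCODE M21 (99.5% of identifiers matched), and 217 genes share a symbol with another. 0 pairs of libraries held identical values.

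The named genes were members of the gene lists and the 12 steepest rises and 12 steepest falls by log2 change. These were taken from called protein-coding genes with a mean of 5 FPKM or more in the higher group and no overlap between the groups. Predicted genes and immunoglobulin or T cell receptor segments were left out of these. Genes at or under 0.1 FPKM in all 3 libraries of one group and at or over 5 FPKM in all 3 of the other were counted, and the 8 highest in each direction could be named. The comparison, the lists and the tests were chosen with earlier results of these data known. Alternatives were another pseudocount, other filters, TPM, median-of-ratios and quantile scaling, the FPKM sum as covariate, a robust variance prior, the 2 groups alone, each library left out, and the 4 libraries of highest FPKM sum left out. Some genes of the lists are not reported here by name.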

Additional observations from a re-analysis of the deposited data

How the results depend on the processing

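Of 258 named genes called between BF10 and Ctrl-IgG, 171 were called in every alternative that tested them and 0 changed direction. A further 150 of the 358 named genes without a call were called in at least 1 alternative. The share of calls kept ranged from 73.3% without BF10 replicate 2 to 100% with the FPKM sum as covariate. The 3941 called genes became 6901 with that covariate, 2135 with a mean of at least 5 FPKM and 6394 without the 4 libraries of highest FPKM sum, and 2603 to 3739 with 1 library left out, lowest without BF10 replicate 2. The cause was not tested, except that the stricter filter tested fewer genes. The 2 genes called between BF10 and IL-10-Fc became 0 with a mean of at least 5 FPKM or with the 2 groups alone, 1 with TPM, 4 with median-of-ratios scaling and 64 without the 4 libraries of highest sum, and 1 to 115 with 1 library left out, highest without BF10 replicate 1. No paired analysis was possible because the replicate numbers were given in accession order, and the codes in the sample titles, whose meaning is not given in the sources used here, have no first part in common between BF10 and Ctrl-IgG and a single one in common between BF10 and IL-10-Fc. FPKM carry no read depth, so the counting error of low genes is unknown.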

Other observations

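Beyond the gene lists, calls were spread unevenly over chromosomes and transcript classes. On the X chromosome 557 genes were tested, of which 52 were called higher and 140 lower in BF10, or 34.5% in all against 24.9% of all genes. Of 34 tested mitochondrial genes 0 were called by limma. Immunoglobulin variable segments were called higher in 43 of 64 cases and lower in 0, and all 10 tested constant genes were called higher. Long intergenic RNAs were called in 47.7% of 298 cases, 50 higher and 92 lower, while microRNA entries were called in 6.30% of 127 cases, though such short RNAs are poorly caught by poly(A) libraries.

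Some genes were near silent in one group, at or under 0.1 FPKM in all 3 libraries, and at or over 5 FPKM in all 3 of the other. There were 16 such genes present in BF10 and 4 present in Ctrl-IgG, given as a description without a test. Hhip, which binds and restrains Hedgehog ligands, was 0, 0.01 and 0.02 FPKM in Ctrl-IgG and 53.4, 21.5 and 23.5 FPKM in BF10. The unprocessed pseudogene Gm8810 on chromosome 17 was listed at 0 in Ctrl-IgG and at 39.1, 44.8 and 36.4 FPKM in BF10. In the other direction the processed pseudogene Gm10182 was 23.9, 16.3 and 23.8 FPKM in Ctrl-IgG and listed at 0 in all BF10 and IL-10-Fc libraries. The 4 genes present in Ctrl-IgG held no protein-coding gene, against 7 of the 16 present in BF10. Pseudogene levels depend on how reads were shared with their parent genes.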
